A study of Mus musculus with 6 samples.

Results

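The genes described here were abundant in untreated mouse breast cancer cells (PBS) and nearly absent from both lines, I80 and DI150, that had been kept in H2O2 for 7 months. They were chosen on those values: at least 20 CPM (a gene's reads scaled by its library's assigned total) in both PBS libraries and under 0.5 CPM in all 4 treated libraries. The rule found 68 of 24454 genes, which is 0.900% of the 7558 genes that passed its PBS condition. Of the 68 genes, 67 encode proteins and 1, Fendrr, is a long noncoding RNA. The word silenced is used for them as a statement about level alone. Their loss against PBS is what selected them, so it is described and not tested. The opposite pattern, under 0.5 CPM in both PBS libraries and at least 20 CPM in all 4 treated libraries, was met by 6 genes.

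MTflEcad is a line of epithelial cells from a mammary tumour of the MMTV-Neu mouse strain. In that strain a promoter active in the mammary gland drives the Neu (ERBB2) oncogene. The cells were dosed with H2O2 every day for 7 months at 80 µM, giving the line I80, or at 150 µM, giving the line DI150, and the untreated line PBS served as the control. The strain, tumour origin and culture medium were shared by all 3 lines. RNA was sequenced in 2 libraries per line, described as biological duplicates, and with 1 line per dose, the dose cannot be told apart from the line. The sources do not say whether duplicates came from separate long-term cultures, so a p-value sets a difference against a spread between duplicates that may be technical.

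As background, an epithelial cell builds and remodels its surroundings through secreted collagens, the chaperones that fold them, hyaluronan and membrane-bound proteases. Its shape depends on non-muscle myosin, tropomyosins and regulators of actin branching and bundling, and its contacts depend on cadherins, nectins and claudins. Wnt and Hedgehog ligands, receptors and feedback inhibitors link such cells to their neighbours, and the primary cilium is the site of Hedgehog signalling in vertebrates. In mammals, a gene can stay silent for many divisions when CpG dinucleotides near its start are methylated or its chromatin is repressive, or when its activating transcription factors are lost. Neither DNA methylation nor chromatin was measured here.

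Promoters of 6 of the 68 genes are shown because their CpG content spans the range found among the genes. They come from RefSeq on GRCm38.p6, cover 250 bases before to 50 bases after the start that the promoter table uses, and are written 5′ to 3′ on the gene's strand with each CG in capitals. Wnt7a and Fmnl1 had the highest ratio of observed to expected CpG among the genes with full values that had a window in the table, and Padi1 and S100a16 the lowest. Evc and Evc2 lie head to head and were chosen after their values were seen. The windows are chr6:91411304-91411603 on the minus strand for Wnt7a, chr11:103170888-103171187 on the plus strand for Fmnl1 and chr5:37338228-37338527 on the plus strand for Evc2. They are chr5:37336832-37337131 on the minus strand for Evc, chr4:140845729-140846028 on the minus strand for Padi1 and chr3:90537004-90537303 on the plus strand for S100a16. For Fmnl1 and Evc, the table's start lies inside the gene body.
Wnt7a: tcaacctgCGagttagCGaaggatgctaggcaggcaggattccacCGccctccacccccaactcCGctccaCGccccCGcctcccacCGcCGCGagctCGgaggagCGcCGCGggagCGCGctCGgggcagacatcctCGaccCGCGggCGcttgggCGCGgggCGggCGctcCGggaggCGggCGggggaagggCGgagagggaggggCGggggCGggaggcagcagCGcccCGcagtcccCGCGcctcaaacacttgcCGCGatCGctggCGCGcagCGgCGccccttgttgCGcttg
Fmnl1: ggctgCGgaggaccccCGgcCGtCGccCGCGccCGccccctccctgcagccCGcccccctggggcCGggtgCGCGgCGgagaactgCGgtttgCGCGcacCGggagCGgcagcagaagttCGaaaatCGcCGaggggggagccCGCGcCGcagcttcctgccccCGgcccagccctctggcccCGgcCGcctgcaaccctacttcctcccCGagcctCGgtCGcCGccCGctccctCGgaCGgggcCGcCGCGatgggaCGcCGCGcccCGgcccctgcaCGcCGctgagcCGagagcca
Evc2: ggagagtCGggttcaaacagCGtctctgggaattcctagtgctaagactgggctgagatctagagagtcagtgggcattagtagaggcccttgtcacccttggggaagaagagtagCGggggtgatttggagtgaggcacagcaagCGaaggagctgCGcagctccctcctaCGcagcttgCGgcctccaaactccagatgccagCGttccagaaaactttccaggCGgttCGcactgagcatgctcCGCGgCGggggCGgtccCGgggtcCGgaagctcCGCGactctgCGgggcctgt
Evc: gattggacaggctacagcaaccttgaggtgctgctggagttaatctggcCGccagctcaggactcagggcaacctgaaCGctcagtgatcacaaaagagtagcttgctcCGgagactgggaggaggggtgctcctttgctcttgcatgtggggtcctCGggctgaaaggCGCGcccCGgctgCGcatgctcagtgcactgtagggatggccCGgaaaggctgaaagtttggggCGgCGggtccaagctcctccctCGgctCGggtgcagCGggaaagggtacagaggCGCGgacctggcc
Padi1: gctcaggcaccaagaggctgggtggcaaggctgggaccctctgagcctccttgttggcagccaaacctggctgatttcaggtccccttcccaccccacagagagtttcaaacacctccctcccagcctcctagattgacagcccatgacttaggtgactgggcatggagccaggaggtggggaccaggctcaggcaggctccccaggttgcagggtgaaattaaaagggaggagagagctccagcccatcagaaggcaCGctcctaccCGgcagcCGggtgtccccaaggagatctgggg
S100a16: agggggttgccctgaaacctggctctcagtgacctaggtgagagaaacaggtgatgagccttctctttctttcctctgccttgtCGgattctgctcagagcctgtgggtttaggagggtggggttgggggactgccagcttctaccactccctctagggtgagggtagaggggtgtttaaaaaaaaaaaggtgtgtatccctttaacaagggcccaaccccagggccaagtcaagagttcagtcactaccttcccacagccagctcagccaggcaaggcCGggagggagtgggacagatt

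The motif counted in these windows was CG, which reads the same on both strands. There were 42 in the Wnt7a window and 43 in that of Fmnl1, 19 and 16 in those of Evc2 and Evc, and 3 and 2 in those of Padi1 and S100a16. Over the 27025 genes of the RefSeq table the median window held 7 (quartiles 3 and 21), and 94.2% held at least 1. All 6 genes had at most 32 reads in the 4 treated libraries together, a low count that the rule imposed. Wnt7a, Fmnl1, Padi1 and S100a16 were picked by their ratios. The windows thus show only that CpG-dense and CpG-poor promoters both occurred in the set, not how often.

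The libraries held 21017849 to 26608715 assigned reads, so 1 read was worth 0.0376 to 0.0476 CPM, and a gene with 0 reads is limited to 0.113 to 0.143 CPM per library (3 reads, counting error alone). Replicates correlated at r = 0.998 in I80, 0.997 in DI150 and 0.991 in PBS across genes, which are not independent replicates. Epcam, Cdh1, Cldn3 and Cldn7, defining genes of epithelium, ran from 149.5 CPM (Cldn3) to 1109 CPM (Epcam) in the treated libraries and from 180.0 CPM (Cldn3) to 668.5 CPM (Cdh1) in the PBS libraries. Of the other epithelial genes, Cldn4 was at 0.936 and 0.412 CPM in I80 and 0.428 and 0.611 CPM in DI150, against 123.9 and 177.6 CPM in PBS. Krt8 ran from 568.3 to 715.9 CPM in the treated libraries, against 1883 and 2018 CPM in PBS, and Krt18 from 852.2 to 988.4 CPM, against 2742 and 2795 CPM in PBS. The epithelial list of 8 genes summed to 3112 to 3132 CPM in I80 and 3156 to 3477 CPM in DI150, against 6523 to 6566 CPM in PBS, and 1 of its genes, Krt19, had 0 reads in the treated libraries. The basal list of 8 genes, which holds the silenced gene Krt15, summed to 2.54 to 2.97 CPM in I80 and 0.809 to 1.03 CPM in DI150, against 1715 to 1760 CPM in PBS. Krt14 alone was 1728 and 1674 CPM of the PBS sums, while Krt5, Krt17 and Trp63 were at 1.09 to 1.90 CPM in PBS. Acta2 and Oxtr of the same list had 0.702 and 0.948 CPM and 0.663 and 0.989 CPM in I80, against 0.0404 CPM or less in PBS. The macrophage list of 10 genes summed to 1.91 to 2.23 CPM in I80 and 2.00 to 2.02 CPM in DI150, against 9.77 to 17.2 CPM in PBS. Csf1r alone made up 7.67 and 14.5 CPM of these PBS sums and had no read in any treated library. Cd68 ran from 1.43 to 1.98 CPM in the treated libraries, against 1.84 and 2.43 CPM in PBS. The remaining genes of the macrophage list stayed at 0.263 CPM or less in every library, and Adgre1, C1qa, C1qb and C1qc had 0 reads throughout. The fibroblast list of 10 genes summed to 23.8 to 24.4 CPM in I80 and 22.6 to 23.1 CPM in DI150, against 21.8 to 23.8 CPM in PBS. These like sums joined opposite changes. Col1a2 had 0 reads in every treated library and 15.3 CPM in both PBS libraries. Pdgfra was at 14.5 and 15.1 CPM in I80 and 19.0 and 18.4 CPM in DI150, against 5.04 and 5.50 CPM in PBS. Col1a1 was at 8.90 CPM in both I80 libraries and 3.85 and 3.63 CPM in DI150, against 1.47 and 2.75 CPM in PBS. The part of the basal, macrophage and fibroblast list differences in the loss of the 68 genes was not tested.

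Together the 68 genes made up 3.86 and 4.78 CPM in the I80 libraries and 3.997 and 5.57 CPM in the DI150 libraries, against 4897 and 5519 CPM in the PBS libraries. In reads this was 215 in I80 and 230 in DI150, against 266795 in PBS. A total of 15 genes had no read in any treated library, and a further 21 had 1 to 3 reads in the 4 treated libraries together. The median was 3 reads, and 3 genes had over 20, namely Padi1 with 32, Rab34 with 29 and Cldn9 with 28. In bulk RNA, fewer cells with a transcript and less of it per cell cannot be told apart. The plot of all genes by library shows the empty range between the treated and the PBS values that the rule imposed.

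**Figure D1:**
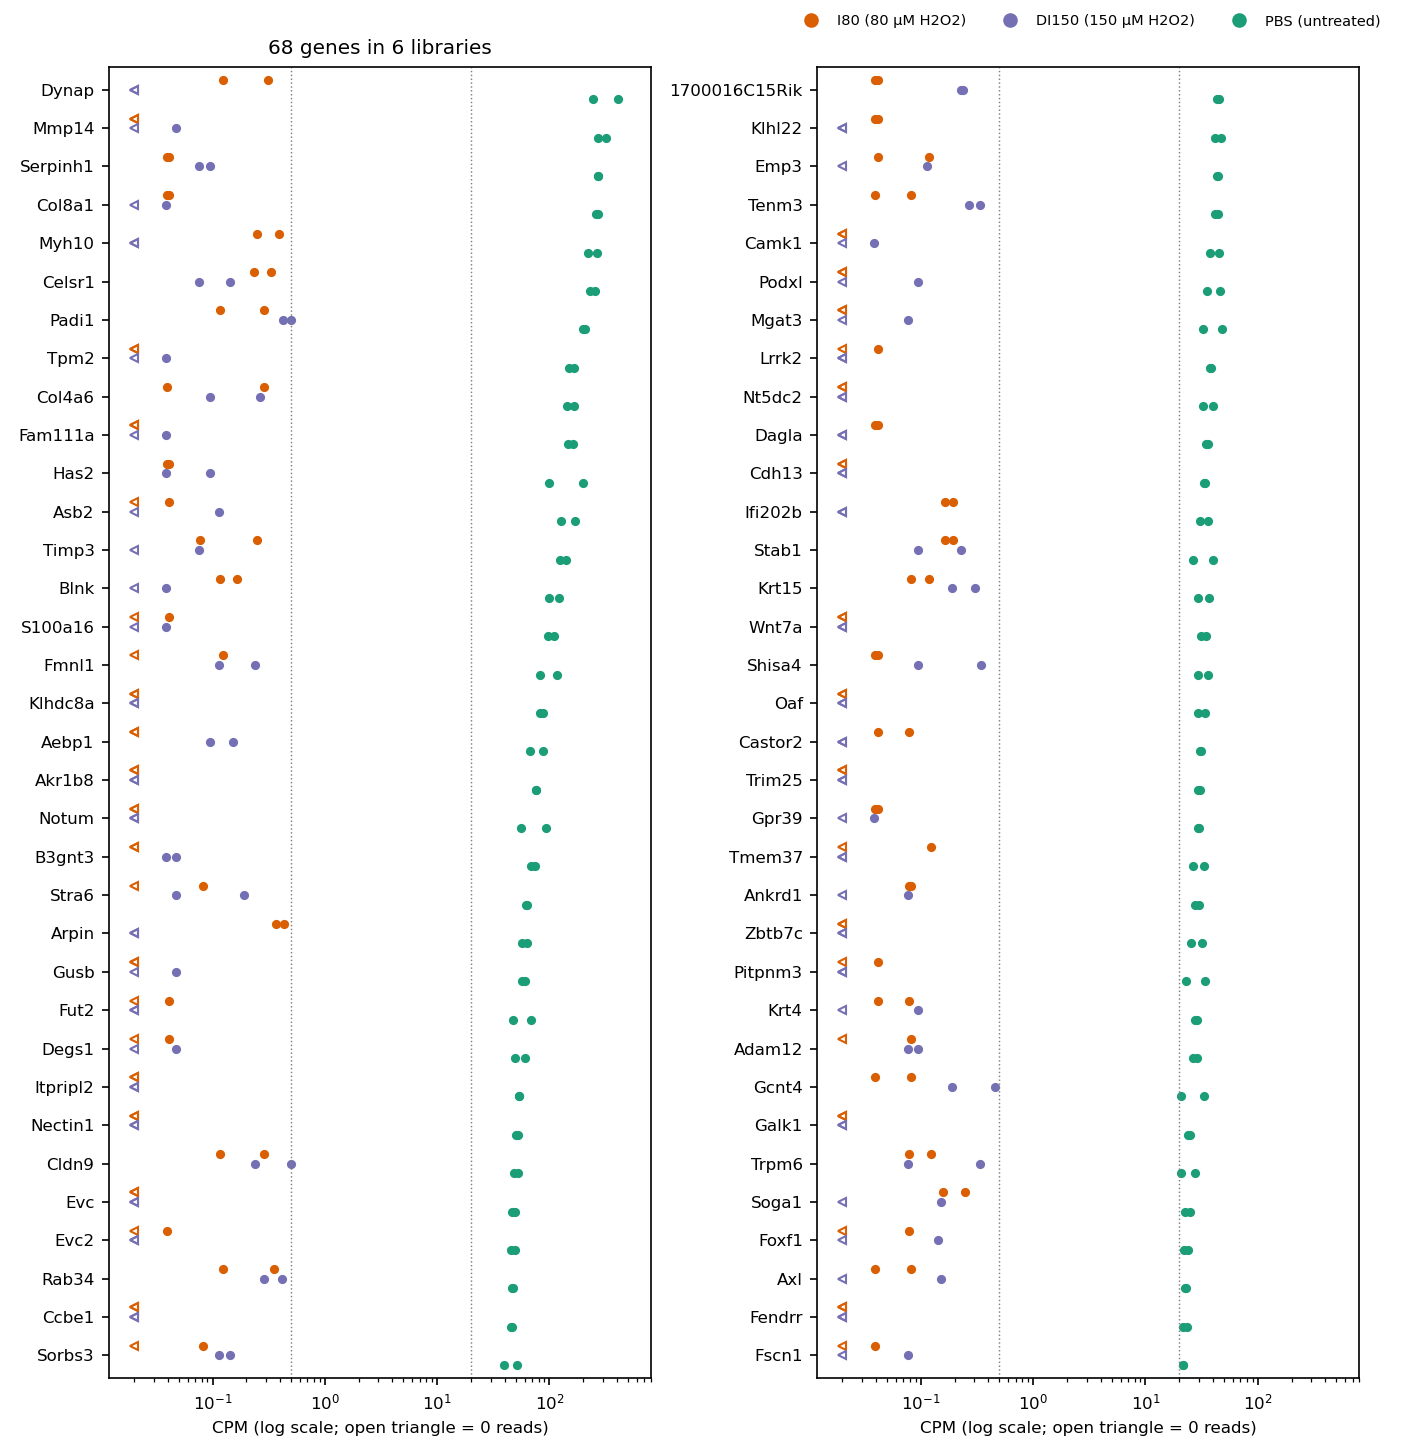
CPM on a log scale for the 68 genes, ordered by mean PBS level. Each point is 1 library of I80 (orange), DI150 (purple) or PBS (green), open triangles mark libraries with 0 reads, and dotted lines mark the 0.5 and 20 CPM of the rule. All treated points lie under 0.5 CPM, 15 genes show triangles alone in both treated lines, and the PBS points reach 406.7 CPM for Dynap.

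Mean PBS levels of the 68 genes had a median of 44.9 CPM, against 69.6 CPM for the other 7490 genes at 20 CPM or more in both PBS libraries. Of the 68, 15 were above 100 CPM, 14 between 50 and 100 CPM and 39 under 50 CPM. On CPM per kb of exon, the scale on which genes can be compared, they ran from 2.996 for Soga1 to 264.9 for Dynap, with Serpinh1 next at 111.1. Spearman's rho between the mean PBS level and the pooled treated reads was 0.107 over the 68 genes, which share the same libraries. The rule bounded both values and left few treated reads, so nothing is read from this rho. Among genes at 20 CPM or more in both PBS libraries, the highest treated value was 0.5 to 1 CPM for 14 genes, 1 to 2 CPM for 26, 2 to 5 CPM for 23, 5 to 20 CPM for 301 and 20 CPM or more for 7126.

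**Figure D2:**
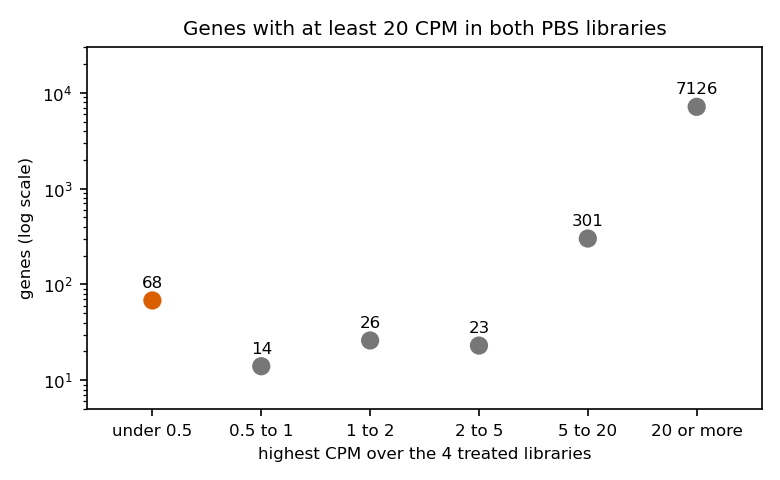
Number of genes (log scale) by their highest CPM over the 4 treated libraries, for the 7558 genes with at least 20 CPM in both PBS libraries. The 68 silenced genes (orange) outnumber each of the next 3 bins, which hold 14, 26 and 23 genes, while 7126 genes stayed at 20 CPM or more in at least 1 treated library.

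The genes nearest to the thresholds differed little from those just past them. Gcnt4, Trpm6 and Fendrr lay just inside the PBS threshold, with lower PBS values of 20.5, 20.7 and 21.4 CPM. Dbt, Mmp9 and Olfm1 lay just outside it at 19.8, 19.4 and 19.0 CPM, and Dbt had 0 reads in all 4 treated libraries. On the treated side, Padi1 and Cldn9 reached 0.496 CPM and Gcnt4 0.458 CPM, while Trim47, Ccdc141 and Krt16 were left out with highest treated values of 0.619, 0.619 and 0.624 CPM.

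Genes that build the extracellular matrix were among the most abundant. Serpinh1 (HSP47), the chaperone that procollagens need to fold in the endoplasmic reticulum, lies at chr7:99345375-99353239. It had 0.0390 and 0.0412 CPM in I80 and 0.0952 and 0.0763 CPM in DI150, against 269.9 and 272.8 CPM in PBS. Those treated values stand for 2 reads in I80 and 4 in DI150, against 13929 in PBS, a PBS to I80 ratio of pooled reads of 6768 (exact 95% interval 1873 to 55892) and a PBS to DI150 ratio of 3203 (1251 to 11758). Both PBS libraries were within 3 CPM of each other, and all 4 treated libraries were at a few reads. Col8a1, a short-chain network collagen, at chr16:57624256-57754737, had 0.0390 and 0.0412 CPM in I80 and 0 and 0.0382 CPM in DI150, against 260.0 and 270.1 CPM in PBS. Its remaining reads were 2 in I80 and 1 in DI150.

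Has2, which makes hyaluronan at the plasma membrane, lies at chr15:56665627-56694546. It had 0.0390 and 0.0412 CPM in I80 and 0.0952 and 0.0382 CPM in DI150, against 99.8 and 199.3 CPM in PBS. The treated libraries were alike, while the PBS libraries differed 2.00-fold from each other, the largest such gap among the 68 genes. Col4a6, a chain of basement membrane collagen IV, had 0.0390 and 0.289 CPM in I80 and 0.0952 and 0.267 CPM in DI150, against 142.2 and 166.6 CPM in PBS. Aebp1, a collagen-binding secreted protein, had 0 reads in I80 and 0.0952 and 0.153 CPM in DI150, against 67.4 and 86.9 CPM in PBS. Ccbe1, a secreted protein needed for lymphatic growth, had 0 reads in all 4 treated libraries and 46.8 and 45.0 CPM in PBS.

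The matrix proteases and their inhibitors were represented by 3 genes. Mmp14 (MT1-MMP), the membrane-bound collagenase that also activates proMMP2, lies at chr14:54431598-54442456. It had 0 and 0 CPM in I80 and 0.0476 and 0 CPM in DI150, against 269.9 and 318.2 CPM in PBS. This is at least 2443-fold lower in I80, from the floor of 3 reads per library, and the single DI150 read gives a PBS to DI150 ratio of 13845 (exact 95% interval 2484 to 546868). Timp3, a matrix-bound inhibitor of metalloproteases, had 0.0780 and 0.247 CPM in I80 and 0 and 0.0763 CPM in DI150, against 124.9 and 139.0 CPM in PBS. Adam12, a membrane-anchored metalloprotease, was at 0.0952 CPM or less in every treated library and at 28.6 and 26.7 CPM in PBS. A protease and an inhibitor were therefore both down to 10 reads or fewer in the treated libraries.

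The actin cytoskeleton was represented by 7 genes. Myh10, the heavy chain of non-muscle myosin IIB, at chr11:68691915-68816626, had 0.390 and 0.247 CPM in I80 and 0 and 0 CPM in DI150, against 266.8 and 222.1 CPM in PBS. Tpm2 (beta-tropomyosin), at chr4:43513726-43523583, had 0 and 0 CPM in I80 and 0 and 0.0382 CPM in DI150, against 147.9 and 166.6 CPM in PBS. Fmnl1, a formin that elongates actin filaments, had 0 and 0.124 CPM in I80 and 0.238 and 0.114 CPM in DI150, against 117.0 and 81.9 CPM in PBS. The remaining reads of Myh10 were in I80 alone. Arpin, an inhibitor of the Arp2/3 complex that branches actin, had 0.429 and 0.371 CPM in I80 and 0 and 0 CPM in DI150, against 63.3 and 56.4 CPM in PBS. The other 3 were Sorbs3 (vinexin, an adhesion adaptor), Ankrd1 (a YAP target) and Fscn1 (fascin, which bundles actin). Their mean PBS levels were 45.6 ± 8.64, 28.9 ± 1.53 and 21.8 ± 0.00110 CPM (SD, n = 2), and each had 8 or fewer reads in the treated libraries.

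Of the 8 cell surface and junction genes, Celsr1, a planar cell polarity cadherin at chr15:85898758-86034223, was the most abundant. It had 0.234 and 0.330 CPM in I80 and 0.143 and 0.0763 CPM in DI150, against 229.6 and 253.2 CPM in PBS. Nectin1, an immunoglobulin-type adhesion molecule of adherens junctions, had 0 reads in all 4 treated libraries and 52.0 and 50.5 CPM in PBS, at least 425.8-fold lower in I80 and 398.4-fold lower in DI150. Cdh13 (T-cadherin), anchored to the membrane by a lipid, also had 0 reads in the treated libraries and 33.8 and 33.4 CPM in PBS. The PBS values of both genes differed little between the libraries. Cldn9, a tight junction claudin, kept 10 reads in I80 and 18 in DI150, against 2588 in PBS. Tenm3 (a teneurin), Podxl (podocalyxin), Stab1 (a scavenger receptor) and Emp3 (a tetraspan membrane protein) had mean PBS levels of 43.0 ± 2.12, 41.0 ± 7.77, 33.4 ± 9.44 and 44.0 ± 0.808 CPM (SD, n = 2).

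Among keratins and the enzymes that modify them, Padi1, a peptidylarginine deiminase that citrullinates keratins and filaggrin in skin, had the most reads left of all 68 genes. It lies at chr4:140812981-140845778 and had 0.117 and 0.289 CPM in I80 and 0.428 and 0.496 CPM in DI150, against 200.4 and 207.3 CPM in PBS. Even so, its PBS to treated ratio of pooled reads was 1017 in I80 (exact 95% interval 552.5 to 2120) and 437.3 in DI150 (288.7 to 698.2). Krt15, a basal keratin, had 0.117 and 0.0824 CPM in I80 and 0.190 and 0.305 CPM in DI150, against 29.3 and 36.7 CPM in PBS. Krt4, a keratin of internal stratified epithelia, had 0.0780 and 0.0412 CPM in I80 and 0.0952 and 0 CPM in DI150, against 27.4 and 29.0 CPM in PBS. The treated libraries of both keratins stayed within 12 reads per line.

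Wnt and Hedgehog signalling and the cilium were represented by 5 genes. Wnt7a, a secreted ligand, at chr6:91363981-91411353, had 0 reads in all 4 treated libraries and 31.4 and 34.5 CPM in PBS, at least 273.5-fold lower in I80 and 255.9-fold lower in DI150. Notum, a secreted enzyme that inactivates Wnt ligands by removing their lipid, at chr11:120653788-120661193, had 0 reads in all 4 treated libraries and 56.3 and 92.2 CPM in PBS. A ligand and an extracellular inhibitor of the same pathway were thus both undetected at this depth. Evc and Evc2, which form a complex at the base of the primary cilium that transmits Hedgehog signals, lie head to head on chromosome 5. Evc (chr5:37288970-37336947) had 0 reads in the treated libraries and 46.4 and 49.7 CPM in PBS. Evc2 (chr5:37338478-37425055) had 0.0390 and 0 CPM in I80 and 0 and 0 CPM in DI150, against 45.7 and 49.5 CPM in PBS. The partner genes thus had matching levels in PBS and 1 read between them in the treated lines. Rab34, a small GTPase of the ciliary pocket, kept 12 reads in I80 and 17 in DI150, against 2414 in PBS.

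Receptors, kinases and adaptors numbered 7. Blnk, the adaptor that links the B cell receptor to its effectors in B cells, had 0.117 and 0.165 CPM in I80 and 0 and 0.0382 CPM in DI150, against 98.8 and 122.0 CPM in PBS. The list of 8 lymphocyte genes summed to at most 0.195 CPM in any library, so Blnk stood without them in PBS. Axl, a receptor tyrosine kinase for GAS6, at chr7:25756500-25788924, had 0.0390 and 0.0824 CPM in I80 and 0 and 0.153 CPM in DI150, against 22.4 and 23.2 CPM in PBS. The others were the zinc-sensing receptor Gpr39, the kinases Camk1 and Lrrk2, the diacylglycerol lipase Dagla and Castor2. Their mean PBS levels ran from 29.8 ± 0.580 CPM for Gpr39 to 41.2 ± 4.97 CPM for Camk1 (SD, n = 2), and each had 3 or fewer reads in the treated libraries.

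Nuclear genes included the forkhead factor Foxf1 and the long noncoding RNA Fendrr, which start next to each other on opposite strands of chromosome 8. Foxf1 had 0.0780 and 0 CPM in I80 and 0.143 and 0 CPM in DI150, against 23.9 and 22.2 CPM in PBS. Fendrr had 0 reads in all 4 treated libraries and 21.4 and 23.3 CPM in PBS. As with Evc and Evc2, the PBS levels of the neighbouring genes were close and both were lost. Fam111a, a serine protease of the nucleus involved in DNA replication, had 0 reads in I80 and 1 in DI150, against 161.6 and 146.4 CPM in PBS. Zbtb7c, a BTB zinc finger factor, had 0 reads in the treated libraries and 25.6 and 31.9 CPM in PBS.

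Enzymes formed 2 groups. The glycan enzymes were B3gnt3 (poly-N-acetyllactosamine extension), Fut2 (alpha-1,2-fucosylation of secreted glycans), Mgat3 (the bisecting N-acetylglucosamine), Gcnt4 (O-glycan branching) and the lysosomal beta-glucuronidase Gusb. B3gnt3 had 0 and 0 CPM in I80 and 0.0476 and 0.0382 CPM in DI150, against 68.7 and 73.8 CPM in PBS. Gusb had 0 and 0 CPM in I80 and 0.0476 and 0 CPM in DI150, against 57.3 and 60.2 CPM in PBS. Gusb, a gene often used as a reference in PCR, was therefore at 1 read in 4 treated libraries. The metabolic enzymes were Akr1b8, an aldo-keto reductase, Degs1, the desaturase that makes ceramide, the galactokinase Galk1 and Nt5dc2, a nucleotidase-like protein. Akr1b8 had 0 reads in all 4 treated libraries and 75.5 and 76.4 CPM in PBS, at least 631.3-fold lower in I80 and 590.8-fold lower in DI150. Its close copies can share reads with it, so its count is uncertain. Galk1, the enzyme that brings galactose into metabolism, had 0 reads in the treated libraries and 24.1 and 24.9 CPM in PBS.

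The ubiquitin and innate immunity genes were Asb2 and Klhl22, substrate adaptors of cullin ligases, Trim25, a ligase of the RIG-I pathway, and Ifi202b, of the interferon-inducible Ifi200 family. Asb2 had 0 and 0.0412 CPM in I80 and 0 and 0.114 CPM in DI150, against 126.7 and 167.5 CPM in PBS. Trim25 had 0 reads in all 4 treated libraries and 29.5 and 30.9 CPM in PBS. Ifi202b kept 9 reads in I80 and none in DI150, against 1713 in PBS, and its count is uncertain because its family holds near-identical copies. Channels and transport genes were the magnesium channel Trpm6, the retinol transporter Stra6, Pitpnm3 and Tmem37, at mean PBS levels of 24.04 ± 4.72, 62.8 ± 1.15, 28.6 ± 7.70 and 29.8 ± 4.77 CPM (SD, n = 2).

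The gene with the highest PBS level was Dynap, a membrane protein, with 0.312 and 0.124 CPM in I80 and 0 and 0 CPM in DI150, against 242.3 and 406.7 CPM in PBS. S100a16, an EF-hand calcium-binding protein at chr3:90537254-90543151, had 0 and 0.0412 CPM in I80 and 0 and 0.0382 CPM in DI150, against 96.7 and 110.1 CPM in PBS. Klhdc8a, a kelch-domain protein, had 0 reads in all 4 treated libraries and 81.5 and 86.8 CPM in PBS. Dynap differed between the PBS libraries by 1.68-fold, S100a16 and Klhdc8a by far less. Itpripl2 and Oaf had 0 reads in the treated libraries as well, with mean PBS levels of 53.2 ± 0.0285 and 31.6 ± 2.96 CPM, and 1700016C15Rik, Shisa4 and Soga1 had 44.3 ± 0.849, 32.6 ± 4.28 and 23.6 ± 1.80 CPM in PBS (SD, n = 2).

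Within PBS, the 68 genes were more often higher in replicate 2 than other abundant genes were. This held for 51 of the 68 (75%), against 49.4% of the other 7490 genes, and the median ratio of replicate 2 to replicate 1 was 1.08, against 0.999. Has2, Dynap, Notum and Gcnt4 exceeded 1.5-fold, at 2.00, 1.68, 1.64 and 1.63, which is 5.88% of the 68 genes and 1.39% of the others. These are descriptions of 2 libraries, and PBS was also the group whose replicates differed most: there the chi-square of the replicates' reads, divided by its degrees of freedom, was 23.3, while I80 gave 4.39 and DI150 9.42.

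DI150 against I80 asks whether the treated lines differ in what was left of these transcripts. The rule capped both lines at 0.5 CPM, so only differences of a few reads were possible. All 68 genes passed the filter on low values (1 CPM or more on average), and they did so through PBS. Of the 68, 24 had 0 reads in I80 and 27 had 0 reads in DI150. The limma test on log2(CPM + 0.5), adjusted by Benjamini-Hochberg over 11428 genes, passed 4 of the 68, edgeR on recovered reads 6 and DESeq2 on recovered reads 7, against 43.8%, 43.7% and 41.5% of all tested genes. The rule itself keeps these counts low, so nothing is read from them, and the differences are given as descriptions without a test.

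Arpin had 0 reads in DI150 and 20 in I80, a log2 difference of -0.85, and Myh10 had 0 reads in DI150 and 16 in I80, a log2 difference of -0.71. Myosin IIB and the Arp2/3 inhibitor thus both kept a few reads in I80 and none in DI150. Tenm3 had 14 reads in DI150 and 3 in I80, a log2 difference of 0.51, and 1700016C15Rik had 11 in DI150 and 2 in I80, a log2 difference of 0.44. By pooled reads, the next largest differences with more in DI150 were those of Padi1 (22 in DI150, 10 in I80), Gcnt4 (16 in DI150, 3 in I80) and Shisa4 (11 in DI150, 2 in I80). Those with fewer in DI150 were Dynap (0 in DI150, 11 in I80), Celsr1 (5 in DI150, 14 in I80) and Ifi202b (0 in DI150, 9 in I80).

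**Figure D3:**
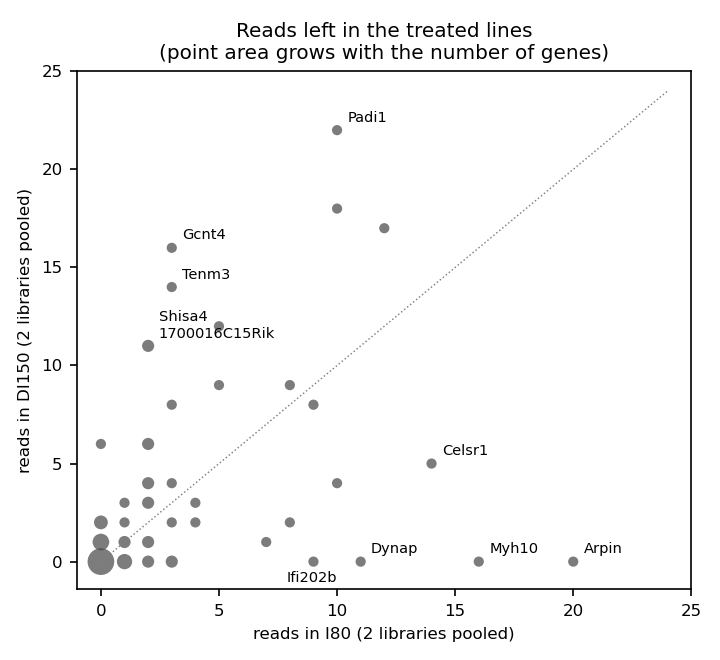
Reads of each of the 68 genes in DI150 (vertical, 2 libraries pooled) against I80 (horizontal, 2 libraries pooled), with point area growing with the number of genes at the same place and a dotted line of equality. Most genes lie near the origin, Padi1 reaches 22 reads in DI150, and Arpin and Myh10 lie at 20 and 16 reads in I80 and 0 in DI150.

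The 68 genes were spread over 20 chromosomes and lay mostly alone. Chromosome 11 held 9, chromosomes 1 and 7 held 7 each, and as a share of the genes at 20 CPM or more in both PBS libraries the highest was 1.69% on chromosome 19 and the lowest 0.168% on chromosome 2. Pairs of silenced genes lay within 1 Mb of each other at 5 places. Nt5dc2 and Stab1 overlap by 108 bases on opposite strands of chromosome 14, so their reads could be mixed where counting ignored strand, which is not given in the sources used here. Evc and Evc2 are 1.53 kb apart and Fendrr and Foxf1 1.27 kb apart. Fut2 and Emp3 are 251.6 kb apart with 8 tested genes between them, and Oaf and Nectin1 497.3 kb apart with 1. These distances use gene bodies on GRCm38.p6.

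No silenced gene started within 1 kb of an opposite-strand start of another gene that has an Entrez number. This was the case for 0 of 68 genes, against 1313 of the 7437 other abundant genes with a placed start (17.7%), by the starts in GENCODE M21. Those counts take the basic transcript set, and with every transcript that has an Entrez number they were 0 of 68, against 1523 of 7437 (20.5%). Starts of genes without an Entrez number were left out of both sets. Within 5 kb the counts were 8 of 68 (11.8%), against 1650 of 7437 (22.2%), with the basic set. With every transcript they were 14 of 68 (20.6%), against 2022 of 7437 (27.2%), and the 14 include Fendrr and Foxf1, because the basic set places the start of Fendrr elsewhere. Among the 8 were Evc and Evc2, whose starts are 1605 bases apart, and Col4a6, whose start is 1309 bases from that of Col4a5, the other collagen IV chain encoded head to head with it. Col4a5 was at 160.4 and 161.0 CPM in I80 and 89.9 and 93.0 CPM in DI150, against 151.5 and 198.7 CPM in PBS. It did not pass the test in I80 and was lower in DI150 with a log2 difference of -0.92 (limma adjusted p = 0.000262), while Col4a6 lost nearly all its reads in both lines.

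Genes beside the silenced ones were compared with PBS next, to see whether the loss extended along the chromosome. The nearest tested gene on each side within 200 kb gave 105 neighbours of 60 silenced genes. Over all tested genes, 66.4% were called in I80 against PBS and 68.7% in DI150 against PBS. In I80, 53 neighbours were lower (50.5%, against 34.2% of all tested genes called lower) and 25 higher (23.8%, against 32.3%), with a median log2 difference of -0.28, against -0.00 for all tested genes. In DI150, 57 were lower (54.3%, against 36.1%) and 24 higher (22.9%, against 32.7%), with a median of -0.40, against -0.03. Both comparisons use the same PBS libraries. Most neighbours moved little: 73 in I80 (69.5%, against 79.0% of all tested genes) and 76 in DI150 (72.4%, against 78.4%) stayed within 2-fold of PBS. In each treated line 10 neighbours (9.52%) were at least 16-fold lower, against 2.03% of all tested genes in I80 and 2.13% in DI150. Leaving out any 1 library gave 40 to 52 lower neighbours in I80 and 50 to 56 in DI150.

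Several of the strongly lowered neighbours belonged to the family of the silenced gene they flank. How often neighbours of other genes share a family was not counted. Padi3, Krt19, Ifi203, Akr1b3 and Akr1b10 were picked after their values were seen. Beside Padi1, the deiminase Padi2 averaged 10.7 ± 0.302 CPM in I80 and 12.7 ± 1.67 CPM in DI150, against 1276 ± 33.8 CPM in PBS (SD, n = 2; limma adjusted p = 2.68e-08 and 2.09e-08), and Padi3 had 0 reads in both treated lines and 8.79 and 13.99 CPM in PBS. Beside S100a16, S100a14 averaged 1.04 ± 0.187 CPM in I80 and 0.229 ± 0.0543 CPM in DI150, against 180.5 ± 13.8 CPM in PBS (SD, n = 2; limma adjusted p = 6.26e-08 and 2.76e-08). Beside Krt4, Krt79 averaged 1.58 ± 0.0236 CPM in I80 and 0.176 ± 0.0873 CPM in DI150, against 63.9 ± 13.9 CPM in PBS (SD, n = 2; limma adjusted p = 5.56e-07 and 1.24e-07). Krt19, beside Krt15, and Ifi203, beside Ifi202b, had 0 reads in both treated lines. Akr1b8 had an unlike pair of relatives at its sides, Akr1b3 with log2 differences of -2.55 in I80 and -1.65 in DI150, and Akr1b10 with 0.62 and 0.71 (limma adjusted p = 0.000107, 0.00106, 0.00556 and 0.00260). The other neighbours at 20 CPM or more in PBS with the largest changes were Pdlim2 beside Sorbs3, Gramd4 beside Celsr1 and Samhd1 beside Soga1, with log2 differences in I80 of -3.35, -1.85 and -1.05.

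Other close neighbours stayed abundant. Of the 67 neighbours at 20 CPM or more in both PBS libraries, 57 were at 20 CPM or more in all treated libraries. The same share over all abundant genes was not computed. On a looser condition, 20 CPM or more in at least 1 treated library, it was 7126 of 7558 genes. The 57 therefore do not show that neighbours kept their level as often as other abundant genes. The examples that follow were chosen after their values were seen. Hnrnpul1, an RNA-binding protein gene 0.231 kb from Axl, was at 276.1 and 279.0 CPM in I80 and 314.3 and 331.5 CPM in DI150, against 254.8 and 250.3 CPM in PBS. Vkorc1l1 and Asl, 2.32 and 8.21 kb from Gusb, had log2 differences of -0.13 and -0.12 in I80 and of -0.29 and -0.21 in DI150. In DI150, Hnrnpul1 rose, with a log2 difference of 0.35, and Vkorc1l1 fell (limma adjusted p = 0.00140 and 0.0281), and the other values of these 3 genes did not pass the test. Rpp30, 7.19 kb from Ankrd1, was at 38.5 and 39.3 CPM in I80 and 37.7 and 39.8 CPM in DI150, against 43.0 and 33.7 CPM in PBS. Of the 68 silenced genes, 60 had a neighbour, and 55 had one at 1 CPM or more in every treated library. No like share was computed for other genes. Car9 overlaps Tpm2 and had 0 reads in the treated libraries and 8.27 and 9.42 CPM in PBS, and reads of the overlap cannot be assigned without strand.

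**Figure D4:**
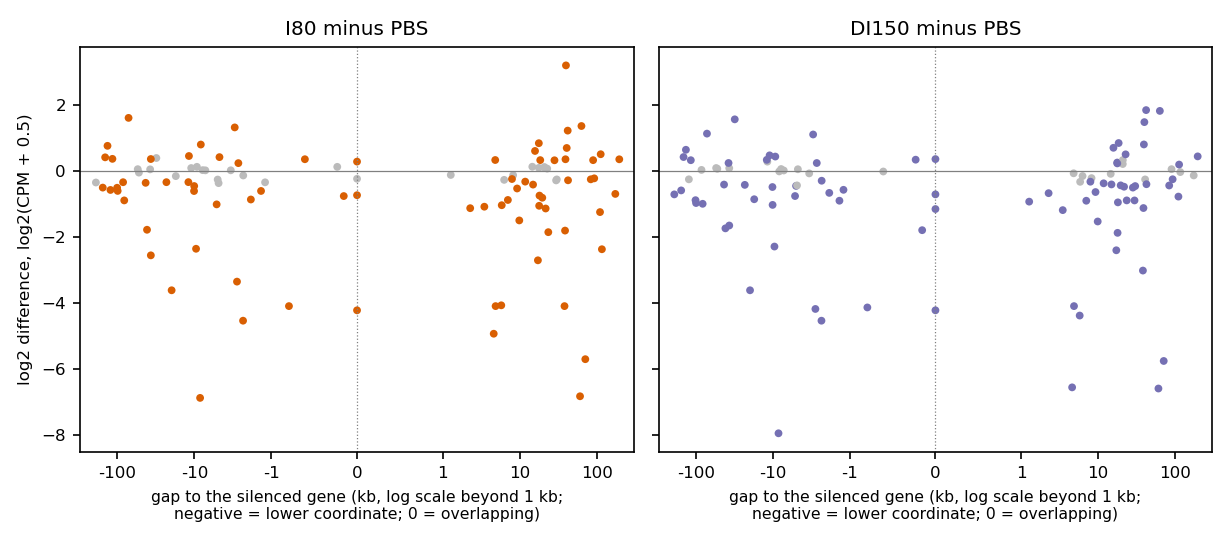
Log2 difference from PBS, on the log2(CPM + 0.5) scale, of the 105 neighbours in I80 (left) and DI150 (right), by the gap to the silenced gene in kb (log scale beyond 1 kb). Coloured points passed the limma test at an adjusted p under 0.05 and grey points did not. Most points lie between -1 and 1 at all distances, and 10 in each panel lie under -4.

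CpG dinucleotides at the start of the transcript were a feature the rule did not use. This measure was not planned and was taken because promoter windows covered too few genes. The bases are of spliced transcripts, so they can join more than 1 exon and are not the promoter. In the first 300 bases of 1 GENCODE M21 transcript per gene, the ratio of observed to expected CpG had a median of 0.620 (quartiles 0.430 and 0.825) over the 68 genes and 0.808 (quartiles 0.646 and 0.946) over the other 7437 abundant genes. A ratio of at least 0.6 was found in 37 of the 68 genes (54.4%), against 80.1% of the others. The GC content of the same bases was alike, with medians of 62.2% over the 68 genes and 62.3% over the others. So were the gene span, 27.2 kb over the 68 genes and 26.2 kb over the others, and the exon length, 3.70 kb over the 68 genes and 3.59 kb over the others. The median CpG ratio was 0.595 over the 68 genes and 0.858 over the others with the first 200 bases, and 0.612 over the 68 genes and 0.726 over the others with the first 500 bases. The genes ran from S100a16 at 0.0836 to Podxl at 1.056, with Serpinh1 at 0.512 and Mmp14 at 0.852, so low values were frequent without being general. These ratios are downstream of the start and differ from those of the promoter windows printed for 6 genes.

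**Figure D5:**
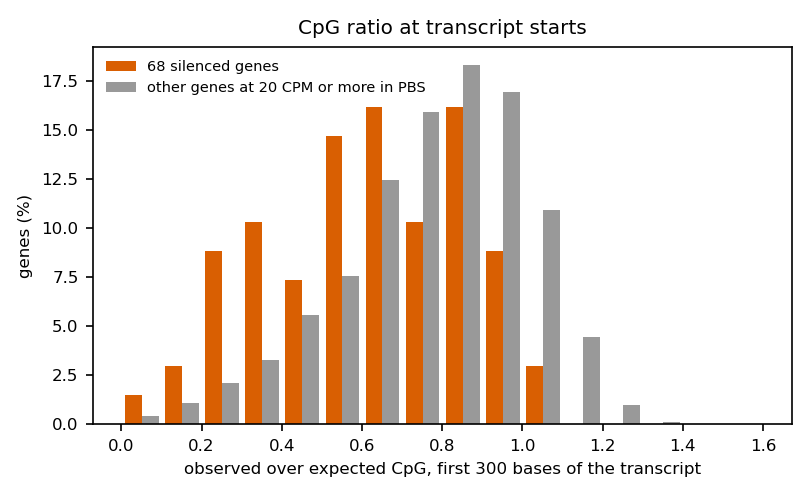
Share of genes (%) by the ratio of observed to expected CpG in the first 300 bases of the spliced transcript, for the 68 silenced genes (orange) and for the other genes at 20 CPM or more in both PBS libraries (grey). The silenced genes have a median of 0.620 and are spread over ratios from 0.0836 to 1.056, and the other genes have a median of 0.808.

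Of 19 gene lists read for families and pathways, 12 held at least 1 silenced gene and 18 of them in all, and 7 held none. Counting only genes that are not silenced, 316 genes of the 12 lists were tested. In I80, 152 of them fell (48.1%, against 34.2% of all tested genes) and 108 rose (34.2%, against 32.3%), with a median log2 difference of -0.25. In DI150, 153 fell (48.4%, against 36.1%) and 125 rose (39.6%, against 32.7%), with a median of -0.19. Over all 19 lists, 248 of 523 genes fell in I80 (47.4%) and 253 in DI150 (48.4%). The lists were chosen with earlier results of these data known, so these shares are descriptions and not independent of the data.

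The lists around the silenced matrix genes differed in direction, with most glycoproteins and proteases falling and collagens divided. Of 18 tested matrix glycoproteins and proteoglycans besides Has2, 13 fell in both I80 and DI150, and 2 rose in I80 and 3 in DI150. Vcan (versican) was at 1.37 and 1.20 CPM in I80 and 0.809 and 1.07 CPM in DI150, against 202.0 and 198.5 CPM in PBS, and Sparc, a collagen-binding glycoprotein, at 9.598 and 10.6 CPM in I80 and 0.381 and 0.191 CPM in DI150, against 171.8 and 169.9 CPM in PBS. Gpc4, a glypican, went the other way, with log2 differences of 4.52 in I80 and 2.86 in DI150 (limma adjusted p = 1.03e-06 and 1.09e-05). Of 30 proteases and inhibitors besides Mmp14, Timp3 and Adam12, 18 fell in each treated line, and 9 rose in I80 and 8 in DI150. Timp2 averaged 11.02 ± 0.739 CPM in I80 and 25.2 ± 2.36 CPM in DI150, against 478.6 ± 63.8 CPM in PBS, and Plau (urokinase) 12.7 ± 0.102 CPM in I80 and 2.48 ± 0.265 CPM in DI150, against 108.1 ± 12.0 CPM in PBS (SD, n = 2 each). Of 24 collagens and collagen-processing genes tested besides Serpinh1 and Col8a1, 12 fell and 11 rose in each line. Col27a1 had log2 differences of 8.85 in I80 and 8.43 in DI150, and Col12a1 of -2.31 and -5.01 (limma adjusted p from 6.28e-09 to 2.25e-05). Of 25 basement membrane genes besides Col4a6, 9 fell and 11 rose in I80, and 8 fell and 12 rose in DI150.

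Hspg2 (perlecan), in the basement membrane list, differed between the treated lines. It was at 2.85 and 3.05 CPM in I80 and 833.1 and 657.2 CPM in DI150, against 271.5 and 292.6 CPM in PBS. The I80 libraries were low and the DI150 libraries higher than PBS, so it fell in I80 and rose in DI150 (log2 differences of -6.36 and 1.39, limma adjusted p = 3.47e-08 and 2.38e-05). Pcolce2, an enhancer of procollagen processing, had 0 reads in I80 and 6.99 and 5.00 CPM in DI150, against 72.2 and 48.1 CPM in PBS.

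The keratin list had the largest share of falling genes of the 19 lists in both treated lines. Of 20 tested keratins and cornified envelope genes besides Krt15 and Krt4, 17 fell and 2 rose in each treated line. Krt14, the partner of Krt5 in basal cells, had 0.273 and 0.701 CPM in I80 and 0.0476 and 0.0763 CPM in DI150, against 1728 and 1674 CPM in PBS, and stayed outside the 68 genes because 1 I80 library passed 0.5 CPM. Tgm1, the transglutaminase that cross-links the envelope, averaged 0.758 ± 0.197 CPM in I80 and 0.338 ± 0.00735 CPM in DI150, against 68.5 ± 14.9 CPM in PBS (SD, n = 2). Of 25 galectins, annexins and S100 genes besides S100a16, 15 fell in each line and 3 rose in I80 and 7 in DI150. Lgals1 (galectin-1) had log2 differences of -9.47 in I80 and -9.04 in DI150, and Anxa8 of -5.96 and -7.17 (limma adjusted p from 2.48e-08 to 5.49e-06).

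In signalling, 19 Wnt ligands and feedback genes were tested besides Wnt7a and Notum, of which 11 fell and 4 rose in I80, and 12 fell and 5 rose in DI150. Wnt10a was at 1.09 and 0.989 CPM in I80 and 0.0952 and 0 CPM in DI150, against 166.9 and 152.7 CPM in PBS, and Wnt4 averaged 0.627 ± 0.279 CPM in I80 and 0.362 ± 0.0263 CPM in DI150, against 24.7 ± 2.85 CPM in PBS (SD, n = 2). Tcf7, a transcription factor of the pathway, had log2 differences of -2.31 in I80 and -2.72 in DI150. Of 48 receptor tyrosine kinases, ephrins and growth factors besides Axl, 22 fell and 16 rose in I80, and 21 fell and 22 rose in DI150. Ephb2 and Efnb1 fell in both lines, with log2 differences in I80 of -4.27 and -3.52, while Igf2 was at 8.70 and 8.66 CPM in I80 and 7.09 and 9.12 CPM in DI150, against 0.0376 and 0 CPM in PBS.

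Of 29 axon guidance and adhesion genes besides Nectin1 and Cdh13, 13 fell and 11 rose in I80, and 14 fell and 10 rose in DI150. Unc5b, a netrin receptor, averaged 2.72 ± 0.0644 CPM in I80 and 1.67 ± 0.0704 CPM in DI150, against 182.5 ± 21.4 CPM in PBS (SD, n = 2), and Sema3e had 0 reads in both lines and 17.6 and 14.2 CPM in PBS. Nectin4, a relative of Nectin1, was at 5.31 and 5.98 CPM in I80 and 0.143 and 0.382 CPM in DI150, against 25.7 and 54.1 CPM in PBS. Of 19 actin and SRF target genes besides Tpm2, 9 fell and 6 rose in I80, and 6 fell and 8 rose in DI150. Fhl2 fell, with log2 differences of -5.25 in I80 and -3.77 in DI150, and the intermediate filament gene Nes rose, with 2.71 in I80 and 2.89 in DI150. Of 16 YAP and TEAD genes besides Ankrd1 and Axl, 6 fell and 3 rose in I80, and 7 fell and 5 rose in DI150. Tead2 averaged 0.526 ± 0.247 CPM in I80 and had 0 reads in DI150, against 71.0 ± 5.86 CPM in PBS (SD, n = 2).

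Akr1b8 went against its list. Of 43 other redox, aldo-keto and xenobiotic enzymes, 30 rose and 7 fell in I80, and 32 rose and 10 fell in DI150, with median log2 differences of 1.52 and 1.53. Gpx2, Gsta3 and Cbr3 had the largest rises, with log2 differences of 9.09, 7.62 and 7.65 in I80 and 9.34, 7.88 and 7.31 in DI150. None of the 68 is among the genes listed for the silencing machinery (DNA methyltransferases, Polycomb and other chromatin repressors). Of 43 tested, 14 rose in I80 (32.6%, against 32.3% of all tested genes) and 10 fell (23.3%, against 34.2%), with a median log2 difference of 0.12. In DI150, 12 rose (27.9%, against 32.7%) and 13 fell (30.2%, against 36.1%), with a median of 0.04.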

How the data were processed

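Total RNA of 6 MTflEcad libraries (2 each of I80, DI150 and PBS) was depleted of ribosomal RNA and sequenced as single reads of 81 bases with a stranded kit, per the labels' protocols. The submitters' processing notes name STAR and the mm10 build without versions. Which counter and annotation were used, and whether counting used strand, is not given in the sources used here. As deposited, the authors' file holds CPM for 24454 Entrez gene numbers. Columns were matched to groups by name, and a DI150 column numbered 3, which the labels do not number so, is called DI150 replicate 3 and, having no such number in the labels, was placed with the samples numbered 2 in the replicate block.

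Gene numbers were matched to symbols and positions of a RefSeq table (GRCm38.p6, to which mm10 corresponds) for 24374 (99.7%). Low CPM values were whole multiples of the worth of 1 read, and division gave whole reads within 1e-06 for 100.0% of 146724 values, with totals of 21017849 to 26608715 per library. Genes at 0 reads were given a floor of 3 reads per library, and ratios of pooled reads carry exact 95% intervals. Floors and intervals cover counting error alone.

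The test was limma 3.58.1 (R 4.3.3; lmFit and eBayes with a trend) on log2(CPM + 0.5) for 11428 genes averaging 1 CPM or more, all 3 groups fitted together, two-sided, Benjamini-Hochberg adjusted over all of them, called at an adjusted p under 0.05. With this pseudocount a log2 difference understates changes of genes at low CPM. edgeR 4.0.16 and DESeq2 1.42.0 on recovered reads, other pseudocounts, filters, scalings and thresholds, the replicate block and leaving out each library were alternatives. The script was tested on simulated data.

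Neighbours were the nearest tested genes outside the 68 on each side within 200 kb. GENCODE M21 gave transcript starts (basic set, with every transcript as an alternative, both limited to transcripts with an Entrez number). It also gave the first 300 bases of 1 spliced transcript per gene. RefSeq promoter windows covered 49 of the 68 genes (72.1%, under the 80% needed), so their CpG ratio was not compared between groups of genes.

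The 68 genes and all lists were chosen with earlier results of these data known, and the roles were assigned after the values were seen. Full values were given for the 24 genes with the highest mean PBS level and those in a role list, values of others were chosen after they were seen. Further names follow from these rules: the 3 genes on each side of each threshold, up to 3 called genes per list with the largest change and a mean of at least 5 CPM, up to 6 neighbours at 20 CPM or more in PBS with the largest change, and the 5 genes each way with the largest difference in reads between DI150 and I80. The promoters are those of the 2 highest and 2 lowest CpG ratios among genes with full values, plus Evc and Evc2.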

Additional observations from a re-analysis of the deposited data

Results flagged for a closer look

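Each gene here, taken from the gene lists and the neighbours, differed between DI150 and I80 past the limma threshold (adjusted over 11428 genes, of which 43.8% passed), so the effects of the treated lines against PBS differed. Values are log2 differences, DI150 minus I80, on the log2(CPM + 0.5) scale. None of them is among the 68 silenced genes, whose values the rule capped in both treated lines.

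Among matrix and protease genes, Hspg2 stood at 7.75, Pcolce2 at 3.68, Timp2 at 1.16 and Col7a1 at 0.97, while Sparc stood at -3.76, Col12a1 at -2.71, Plau at -2.15, Gpc4 at -1.67 and Col27a1 at -0.41. Of the keratin, annexin and S100 genes, Krt79 stood at -1.63, Anxa8 at -1.22, S100a14 at -1.07, Krt16 at -0.84, Krt14 at -0.78 and Tgm1 at -0.58. Of the signalling and adhesion genes, Nectin4 stood at -3.03, Ephb2 at -2.11, Wnt10a at -1.50, Tead2 at -1.02, Unc5b at -0.57 and Tcf7 at -0.40, with Fhl2 at 1.49, Dlc1 at 1.06 and F3 at 0.41. Of the remaining neighbours, Gramd4 stood at 0.97, Pdlim2 at -0.83 and Samhd1 at -0.82. Krt14, Krt16, Tgm1, Anxa8, S100a14, Wnt10a and Tead2 averaged 1.04 CPM or less in each treated line, so their differences rest on few reads. Krt14, for example, had 24 pooled reads in I80 and 3 in DI150, against 87355 in PBS.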

How the results depend on the processing

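No result reversed under any alternative run. The rule found 55 genes with treated values under 0.25 CPM and 82 under 1 CPM, 116 with PBS values of at least 10 CPM and 26 with at least 50 CPM. Leaving out 1 library gave 68 to 78 genes. With the 116 and 26 genes, the neighbours lower in I80 were 87 of 179 (48.6%) and 21 of 42 (50%), and those lower in DI150 were 86 of 179 (48.0%) and 27 of 42 (64.3%). In DI150 against I80, the count of silenced genes called, 4, which the rule keeps low, was 11 with a pseudocount of 0.1, 2 with a pseudocount of 1, 2 with no filter, 7 with DESeq2 and 1 to 7 with 1 library left out. The count over all genes, 5008, was then 2488 to 6091, the low end without I80 replicate 2, with 2524 without I80 replicate 1, 3000 without DI150 replicate 1 and 3206 without DI150 replicate 3. An arm with 1 library left is assumed to vary like the other groups. Of the settings tried on single genes, DI150 against I80 left 515 results of silenced genes unchanged, called or not, with 17 calls lost and 23 gained. The rule capped these genes in both lines, so the unchanged results are no sign of robustness. The calls of other genes against PBS gave 1229 unchanged and 1 lost. That was Lmod1 in DI150 without DI150 replicate 1, with a log2 difference of 0.95, against 1.12 with all libraries. Whether the replicate numbers pair the samples was not settled, as the DI150 column numbered 3 has no such number in the labels. The main test took the samples as unpaired. Deviations of the replicates correlated at 0.213 between DI150 and I80, 0.0228 between I80 and PBS and -0.0551 between DI150 and PBS. With the replicate block, 7560 genes were called in I80 against PBS, 7814 in DI150 against PBS and 4903 in DI150 against I80. Lower neighbours numbered 53 in I80 and 57 in DI150. The silenced genes called in DI150 against I80 stayed at 4, with Padi1 in the place of 1700016C15Rik. Nothing is read from that exchange, as the rule capped both lines. The comparison of RefSeq promoter windows was not run, for lack of windows. At this depth 0 reads limit a gene to the worth of 3 reads per library, counting error alone, and do not show that its RNA was absent.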

Other observations

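Of 31 tested TGF-beta, activin and BMP genes, 19 fell and 5 rose in I80, and 20 fell and 6 rose in DI150, against 34.2% and 36.1% of all tested genes falling. Of 34 tested transcription factors of basal and mesenchymal cells, 18 fell in each treated line, and 6 rose in I80 and 9 in DI150. Of 26 tested chemokines, cytokines and their receptors, 14 fell in each line, and 6 rose in I80 and 7 in DI150. Of 11 tested homeobox cluster genes, 6 rose and 5 fell in I80, and 8 rose and 2 fell in DI150. None of these 4 lists holds a silenced gene. Lpl, a lipoprotein lipase, had 0 reads in I80 and in PBS and 11.8 and 13.6 CPM in DI150.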
